A study of Mus musculus with 3 samples.

Results

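The sterol and fatty acid synthesis enzymes comprise 34 listed genes. They were chosen by name, and every probe set of the array that is annotated to 1 of these symbols alone was taken. A total of 33 genes had such probe sets, 78 in all, out of 18193 genes that the array names in this way. Acat2, the cytosolic thiolase at the entry to the pathway, was not analysed here. The list falls into 4 groups: 9 genes of the mevalonate route up to squalene, 10 genes of the post-squalene route to cholesterol, 10 fatty acid genes, and 5 genes for the SREBP transcription factors, their control and a sterol carrier. A filter on low intensity kept 62 of the 78 probe sets and 32 of the 33 genes. Fads2, the delta-6 desaturase, had all 3 of its probe sets under the filter.

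Expression was measured on 3 arrays in follicular regulatory T (Tfr) cells, regulatory T cells carrying Foxp3 that home to B cell follicles, where they dampen antibody responses. The cells were sorted from spleens of C57BL/6 mice on day 8 after immunization with ovalbumin (OVA), using CD4, CD44, GITR, CD25 and CXCR5. Wild-type (WT) cells came as 1 pool from 4 mice, and Rptor-null cells as 2 pools, each from 8 CD4-Cre-Rptor fl/fl mice. CD4-Cre acts in all T lineage cells, so the deletion is not limited to Tfr cells. Ages and sexes were not given, nor whether the WT mice carried Cre or floxed alleles. Rptor encodes raptor, the subunit that defines the kinase complex mTORC1. Its only probe set above the filter read 365 in WT, against 353 and 412 in the Rptor-null pools, and where it lies relative to the deleted part is not known.

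Cells make cholesterol from acetyl-CoA through mevalonate, isoprenoid diphosphates and squalene. Farnesyl and geranylgeranyl diphosphate, made on the way, also anchor small GTPases to membranes. Fatty acid synthesis starts from the same acetyl-CoA. SREBP2 drives most sterol genes and SREBP1 most fatty acid genes, after the escort protein SCAP carries them from the endoplasmic reticulum, where INSIG proteins hold them back. mTORC1 is known to promote SREBP activity, and in regulatory T cells raptor has been linked to the mevalonate pathway. The comparison asks how transcripts of this pathway differ in Tfr cells when T lineage cells lack raptor.

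All values come with the following measures of the arrays. The median intensity was 52.8 in WT, against 55.0 and 54.9 in the Rptor-null pools. The ratio of 3' to 5' signal, which rises as RNA is degraded, was 1.11 in WT, against 1.94 and 2.58 in the Rptor-null pools for Gapdh, and 1.40 against 2.65 and 2.87 for beta-actin. Of the defining Tfr markers, Foxp3 read 752 in WT, against 587 and 423 in the Rptor-null pools, and Cxcr5 read 713 against 374 and 392. The summed level of 10 measured T cell markers of 13 listed was 45537 in WT, against 29305 and 28843 in the Rptor-null pools. For 15 macrophage and monocyte markers of 15 listed it was 37244 in WT against 51104 and 57605, and for 12 cell cycle genes of 14 listed 21033 against 11997 and 10704. The macrophage antigen Adgre1 read 602 in WT, against 1047 and 1252 in the Rptor-null pools. The B cell receptor subunit Cd79a read 62.7 in WT, against 50.7 and 76.9. Whether cell makeup, cycling or RNA quality has a part in the differences below was not tested. In such sorted pools, fewer cells of a type and less RNA per cell cannot be told apart.

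Upstream sequence is shown for 3 enzymes whose transcripts were called lower by the test below (Ebp, Ggps1, Acly). It is also shown for Hmgcs1, the SREBP target at the head of the mevalonate route, whose transcript did not pass the test. Each is the 250 bases before the RefSeq gene start (GRCm38.p6), 5′ to 3′ on the gene's strand. Capitals mark matches on either strand to 4 motifs: the sterol regulatory element TCACNCCAC bound by SREBPs, the CCAAT box bound by NF-Y, the GC box GGGCGG bound by Sp1, and the E-box CACGTG. The windows are chrX:8193513-8193762, minus strand, for Ebp, chr13:14063489-14063738, minus strand, for Ggps1, chr11:100528001-100528250, minus strand, for Acly, and chr13:119690101-119690350, plus strand, for Hmgcs1.
Ebp: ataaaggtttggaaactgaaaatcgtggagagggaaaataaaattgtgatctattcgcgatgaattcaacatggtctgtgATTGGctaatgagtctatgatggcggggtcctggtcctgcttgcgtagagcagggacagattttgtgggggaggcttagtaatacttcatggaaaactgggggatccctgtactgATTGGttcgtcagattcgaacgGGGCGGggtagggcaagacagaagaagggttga
Ggps1: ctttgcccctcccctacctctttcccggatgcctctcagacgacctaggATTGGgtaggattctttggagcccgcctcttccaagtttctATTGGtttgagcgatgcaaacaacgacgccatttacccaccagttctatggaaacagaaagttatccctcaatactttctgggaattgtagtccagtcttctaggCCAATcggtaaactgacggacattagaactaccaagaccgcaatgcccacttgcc
Acly: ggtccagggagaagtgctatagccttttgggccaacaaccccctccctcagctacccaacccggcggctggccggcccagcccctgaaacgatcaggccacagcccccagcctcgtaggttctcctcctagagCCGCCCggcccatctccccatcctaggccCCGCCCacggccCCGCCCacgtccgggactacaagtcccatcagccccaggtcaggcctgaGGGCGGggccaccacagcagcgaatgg
Hmgcs1: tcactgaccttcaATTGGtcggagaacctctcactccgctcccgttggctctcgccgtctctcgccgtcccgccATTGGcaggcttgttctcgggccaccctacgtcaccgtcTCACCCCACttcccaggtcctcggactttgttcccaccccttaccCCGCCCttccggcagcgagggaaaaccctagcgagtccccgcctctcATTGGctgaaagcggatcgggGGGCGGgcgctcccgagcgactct

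The Hmgcs1 window holds the sterol element, as TCACCCCAC, from 137 to 129 bases before the start, with 3 CCAAT matches and 2 GC boxes. Ebp has 2 CCAAT matches and 1 GC box, Ggps1 has 3 CCAAT matches, and Acly has 4 GC boxes. No overlap between matches of different motifs occurred in these windows. RefSeq promoters were at hand for 26 of the 33 genes, 32 windows in all. CCAAT was found in 22 of the 32 windows (68.8%), against 33.8% of all 32851 windows of this length, and GGGCGG also in 22 (68.8%), against 32.7%. CACGTG was found in 6 windows (18.8%, against 6.02%) and TCACNCCAC in 1 (3.12%, against 1.05%). Among the 3 genes with a window whose transcripts were called lower, 2 had CCAAT, 2 had GGGCGG and 0 had the sterol element. The calls of Ggps1 and Acly depended on the probe set or setting, as given below. Fdps and Scd2, also called lower, had no window. These are matches of letters in a short window and were not tested as binding sites.

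In Rptor-null Tfr cells 5 of the 32 measured enzymes and regulators were lower than in WT, 0 were higher and 27 did not pass the test (limma, Benjamini-Hochberg adjustment over 12725 genes, threshold 0.05). The 5 were Fdps, Ggps1, Ebp, Acly and Scd2, and their fall ranged from 2.68-fold to 1.28-fold. Among all genes tested 11.1% were lower and 3.93% higher by the same rule, so the members' share of lower calls, 15.6%, was near the background. After quantile normalization 3 members were lower, against 5.46% lower and 4.12% higher of all genes. At an unadjusted p under 0.05, 10 members were lower and 2, Acss2 and Fads1, were higher, against 21.7% lower and 8.11% higher of all genes. On the brightest probe sets only Fdps was 2-fold or more lower in both Rptor-null pools, against 0.582% of all genes. On these 0 members were 2-fold higher, against 0.393%. A dimmer probe set of Acly was also 2-fold or more lower in both pools. With 1 WT array the spread rests on the 2 Rptor-null pools, and WT was assumed to vary like them.

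Both Rptor-null pools lay below WT for 19 members, above it for 7 and on either side of it for 6. Over all genes tested 48.7% lay below WT in both pools and 32.8% above. The median log2 difference, Rptor-null minus WT, was -0.15 over the members and -0.059 over all genes tested. It was -0.24 with Rptor-null pool 1 alone and -0.082 with pool 2 alone. Differences between the arrays varied with brightness, and in the level range that holds 16 of the members the median over all 2545 genes was -0.14, against -0.16 for those members. In the brightest range 5 members had a median of -0.36, against -0.12 for all genes there, and in the next brightest range 7 members had -0.12 against -0.15. The 4 dimmest members had a median of -0.030, against -0.0018 in their range.

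**Figure D1:**
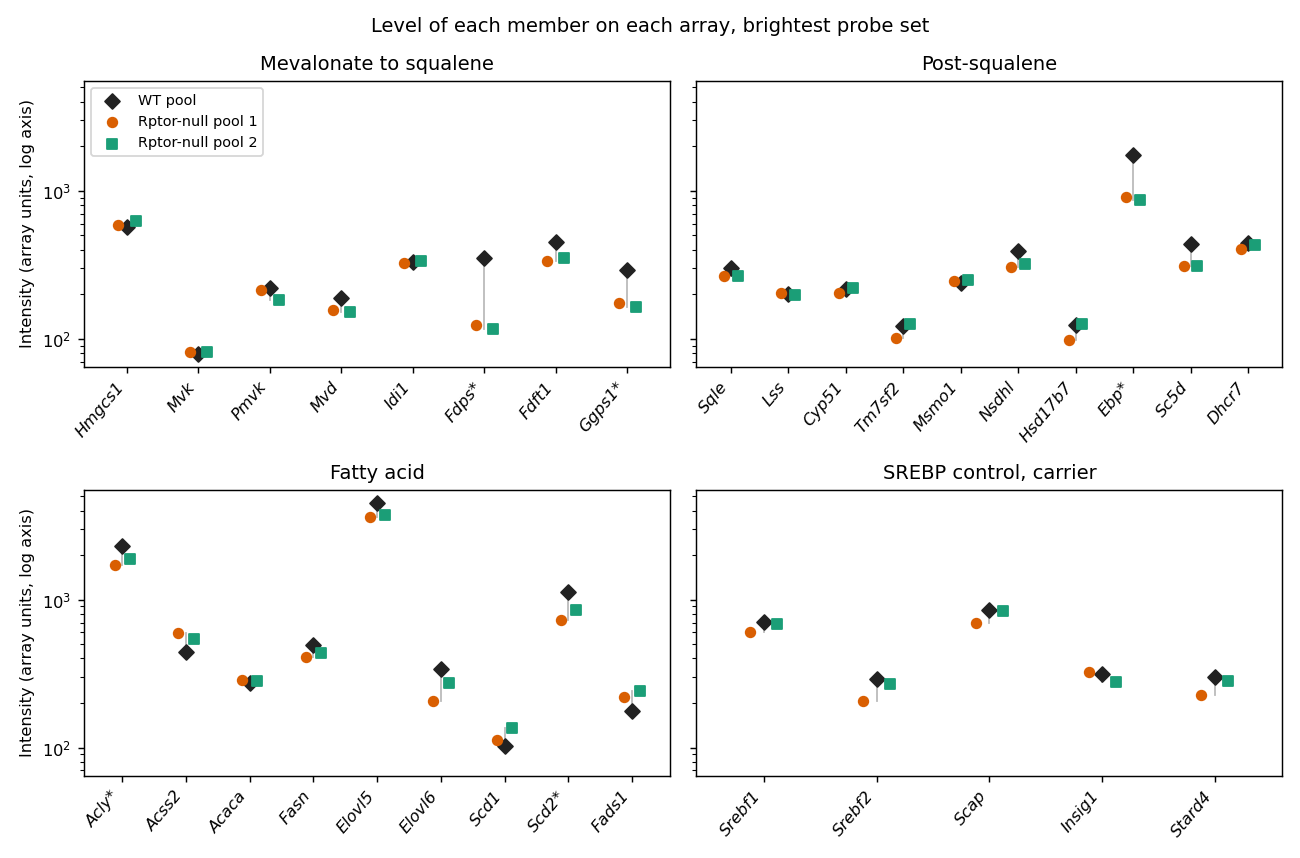
Intensity (array units, log axis) of the brightest probe set of each of the 32 measured members in the WT pool and the 2 Rptor-null pools, by branch; an asterisk marks an adjusted p under 0.05. Fdps, Ggps1, Ebp, Acly and Scd2 stand below WT in both Rptor-null pools, and most others lie close to WT. Levels of different probe sets are not comparable.

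In the mevalonate route 2 of 8 measured genes fell, 0 rose and 6 did not pass. Of all genes tested, 11.1% were lower and 3.93% higher. Fdps makes farnesyl diphosphate, the branch point between sterols, dolichol, ubiquinone and prenylated proteins. It read 350 in WT, against 125 and 116 in the Rptor-null pools. Both Rptor-null pools were far below WT and close to each other, a log2 difference of -1.42 ± 0.15 (SE, limma), or 2.68-fold lower (adjusted p = 0.00383). Its other probe set was below the filter, at 7.89 in WT and 8.22 and 7.68 otherwise.

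Ggps1 extends farnesyl to geranylgeranyl diphosphate, the lipid used to anchor small GTPases in membranes. Its brightest probe set read 292 in WT, against 176 and 163 in the Rptor-null pools, 1.67-fold lower (log2 difference -0.74 ± 0.15, adjusted p = 0.0189). Its 4 kept probe sets did not share a direction. A second read 256 in WT against 181 and 182, and a further one 171 against 168 and 154. The last read 107 in WT, against 183 and 141 in the Rptor-null pools, higher than WT in both, a log2 difference of 0.53. The call rested on the brightest of the 4 probe sets, and the mean over its 4 probe sets was -0.19 (adjusted p = 0.405). Without probe sets that can match several transcripts, only the last remained, and the direction turned (0.53, adjusted p = 0.123).

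The enzymes before and beside these showed smaller differences. Hmgcs1, which makes HMG-CoA, read 570 in WT, against 584 and 627 in the Rptor-null pools (log2 difference 0.084 ± 0.12, adjusted p = 0.692). Its Rptor-null values lay just above WT, but log2 differences of its 4 kept probe sets went from -0.17 to 0.12, with a mean of -0.024. The kinases Mvk and Pmvk and the decarboxylase Mvd act in turn on mevalonate. Mvk read 78.9 in WT against 81.4 and 81.6, Pmvk 221 against 214 and 183, and Mvd 189 against 157 and 152. A second kept probe set of Mvd was higher than WT in both pools, with a log2 difference of 0.22. Idi1, the isopentenyl diphosphate isomerase, read 330 in WT, against 324 and 335 in the Rptor-null pools, on either side of WT. Its second kept probe set was lower in both pools, at -0.38. Fdft1, squalene synthase, which commits farnesyl diphosphate to sterols, read 453 in WT and 333 and 350 (log2 difference -0.39, adjusted p = 0.0845). Both of its Rptor-null values were below WT on that probe set, while another kept one was higher in both, at 0.19. The branch median was -0.20.

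Among the 10 post-squalene genes 1 fell, 0 rose and 9 did not pass. That share of lower calls, 10%, was near the 11.1% of all genes, of which 3.93% were higher. Ebp, the sterol isomerase that moves a double bond in the B ring, read 1734 in WT, against 902 and 870 in the Rptor-null pools. The 2 Rptor-null values were nearly equal and both far below WT, with a log2 difference of -0.96 ± 0.10, or 1.94-fold lower (adjusted p = 0.00383). It has 1 probe set. The next step, the desaturase Sc5d, read 434 in WT and 311 in each Rptor-null pool (log2 difference -0.46, adjusted p = 0.0538), just outside the threshold. A second kept probe set of Sc5d differed by -0.083. Nsdhl, a dehydrogenase that takes part in removing methyl groups from sterol intermediates, read 392 in WT against 308 and 320 (adjusted p = 0.167).

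The remaining post-squalene enzymes lay close to WT on their brightest probe sets. Sqle, squalene epoxidase and a rate-limiting enzyme, read 301 in WT, against 268 and 264 in the Rptor-null pools (log2 difference -0.17 ± 0.14, adjusted p = 0.464). Lss, which closes the ring system to lanosterol, read 201 in WT and 205 and 198, and Cyp51, the lanosterol demethylase, 217 in WT and 204 and 221. The Rptor-null values of these 2 genes lay on either side of WT. A second kept probe set was lower in both pools for Lss (log2 difference -0.19) and for Cyp51 (-0.28). Dhcr7, the last reductase, read 441 in WT against 402 and 433, and Msmo1, a methyl sterol oxidase, 237 against 247 and 251. A second, dim kept probe set of Msmo1 was higher in both pools, at 34.3 in WT against 56.3 and 40.2 (log2 difference 0.34). Tm7sf2, a sterol reductase, read 122 in WT against 101 and 126, and Hsd17b7, a keto-reductase, 124 against 98.6 and 125. For both, pool 1 was below WT and pool 2 just above it. The branch median was -0.12, with -0.20 in Rptor-null pool 1 alone and -0.024 in pool 2 alone.

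**Figure D2:**
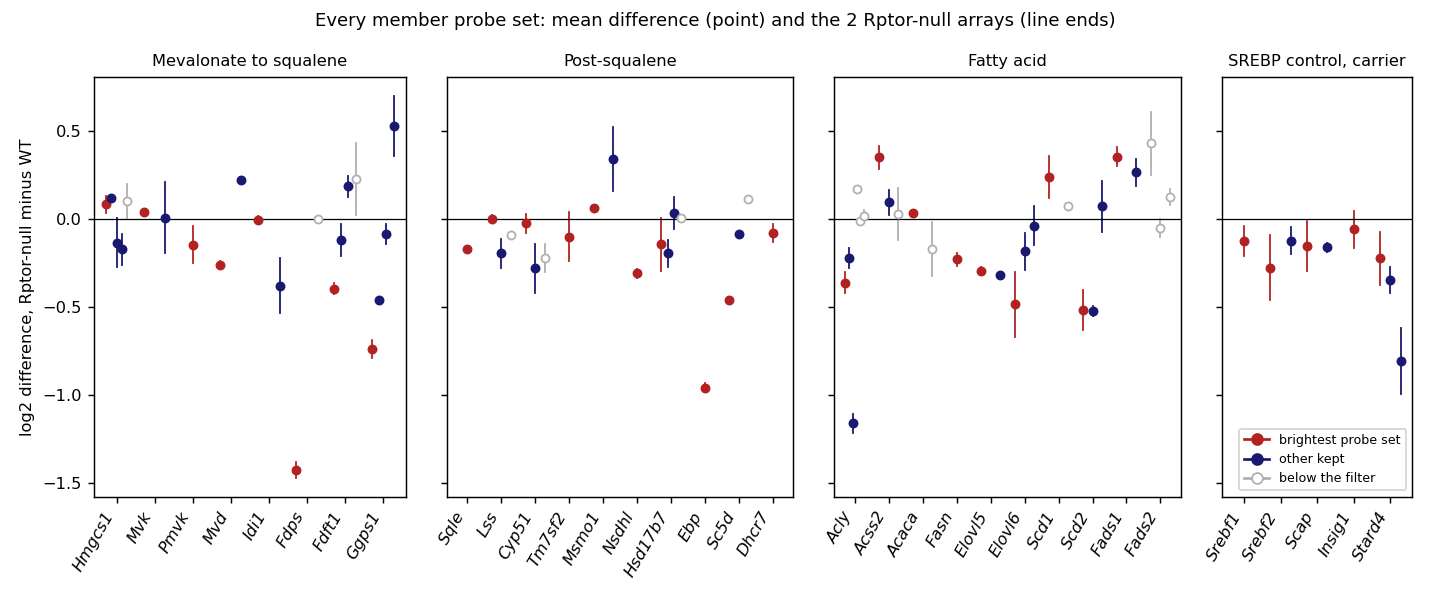
log2 difference, Rptor-null minus WT, of each of the 78 member probe sets, with the mean as a point and the 2 Rptor-null pools as the ends of the line. Probe sets of Ggps1, Acly, Scd2 and Stard4 spread widely within the gene, whereas those of Elovl5, Fads1 and Scap lie close together.

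Of 9 measured fatty acid genes 2 fell, 0 rose and 7 did not pass. By the same rule 11.1% of all genes were lower and 3.93% higher. Acly, which cleaves citrate to give cytosolic acetyl-CoA for both pathways, read 2304 in WT, against 1718 and 1869 in the Rptor-null pools on its brightest probe set. Both were below WT, a log2 difference of -0.36 ± 0.10 (1.28-fold lower), and the adjusted p of 0.049991 lay on the threshold. A further probe set of Acly read 399 in WT and 177 and 163, a log2 difference of -1.16. That difference passed when each of 27022 kept probe sets was tested on its own (adjusted p = 0.0125), while the brightest did not (adjusted p = 0.0809). The other kept probe set read 2019 in WT against 1799 and 1666, so all 3 were lower. The Acly call was lost in 6 of 10 tested alternatives, with an adjusted p of up to 0.166 after quantile normalization.

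Acss2 supplies acetyl-CoA from acetate. It read 442 in WT, against 596 and 541 in the Rptor-null pools, above WT in both (log2 difference 0.35, adjusted p = 0.105). Its second kept probe set read 292 in WT against 298 and 329, a log2 difference of 0.095. Acaca, acetyl-CoA carboxylase and the committed step, read 275 in WT and 284 and 281 (log2 difference 0.037 ± 0.14, adjusted p = 0.884). Fasn, fatty acid synthase, read 496 in WT and 410 and 432 (log2 difference -0.23 ± 0.12, adjusted p = 0.27), below WT in both pools without passing the test.

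The desaturases followed no common direction, whereas the elongases Elovl5 and Elovl6 had negative mean differences on every kept probe set. Scd2, a stearoyl-CoA desaturase, read 1134 in WT, against 727 and 853 in the Rptor-null pools, 1.43-fold lower (log2 difference -0.52 ± 0.13, adjusted p = 0.0338). Both were below WT, and a second probe set gave the same difference (74.4 in WT against 45.7 and 48.2), while the last kept one differed by 0.073. The Scd2 call was lost after quantile normalization (adjusted p = 0.110), when its probe sets were averaged (adjusted p = 0.149) and without a variance trend (adjusted p = 0.0869). Its paralogue Scd1 read 103 in WT and 113 and 136 (log2 difference 0.24 ± 0.17, adjusted p = 0.41), above WT in both pools. The difference between the paralogues was not tested.

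Elovl5, an elongase of polyunsaturated fatty acids, read 4511 in WT and 3634 and 3731 (log2 difference -0.29, adjusted p = 0.0575). Its second probe set gave -0.32, so both were lower in both pools. Elovl6, which elongates saturated chains, read 338 in WT and 207 and 272 (log2 difference -0.48, adjusted p = 0.124), with the Rptor-null pools well apart. Its other kept probe sets differed by -0.18 and -0.037. Fads1, the delta-5 desaturase, read 176 in WT and 221 and 239 (log2 difference 0.36, adjusted p = 0.161), and its second probe set was also higher in both pools. Fads2 read at most 44.5 on any probe set and array. The branch median was -0.23, and it was -0.095 without the intensity filter and -0.11 after quantile normalization.

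None of the 5 genes of SREBP control and sterol transport passed the test, and 0 had an unadjusted p under 0.05 in limma. Of all genes, 11.1% were lower and 3.93% higher by the test, and 21.7% and 8.11% at that unadjusted p. Srebf1, which encodes SREBP1, read 701 in WT, against 604 and 681 in the Rptor-null pools (log2 difference -0.12 ± 0.12, adjusted p = 0.557). Srebf2, which encodes SREBP2, read 289 in WT and 206 and 270 (log2 difference -0.28 ± 0.18, adjusted p = 0.367). For both genes pool 2 was close to WT and pool 1 lower. Scap read 849 in WT and 690 and 841. Insig1, an SREBP target whose product retains SCAP, read 313 in WT and 324 and 277, on either side of WT (log2 difference -0.058 ± 0.15, adjusted p = 0.835). Stard4, a carrier of cholesterol between membranes, read 299 in WT and 227 and 283 on its brightest probe set (adjusted p = 0.428). Another probe set read 166 in WT against 75.2 and 102, a log2 difference of -0.81 (adjusted p = 0.0609 over probe sets). The branch median was -0.15, with -0.29 in Rptor-null pool 1 alone and -0.074 in pool 2 alone, and it was -0.028 after quantile normalization.

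Tested probe set by probe set, 4 of the 62 kept member probe sets were lower and 0 higher, and the 4 belonged to Fdps, Ggps1, Ebp and Acly. Of all 27022 probe sets 6.04% were lower and 2.79% higher by this rule. At an unadjusted p under 0.05, 14 member probe sets were lower and 2 higher, against 16.4% and 8.56% of all probe sets. Of the 20 members with several kept probe sets, 13 had mean differences of 1 sign throughout. The others were Fdft1, Ggps1, Hmgcs1, Hsd17b7, Lss, Mvd and Scd2.

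**Figure D3:**
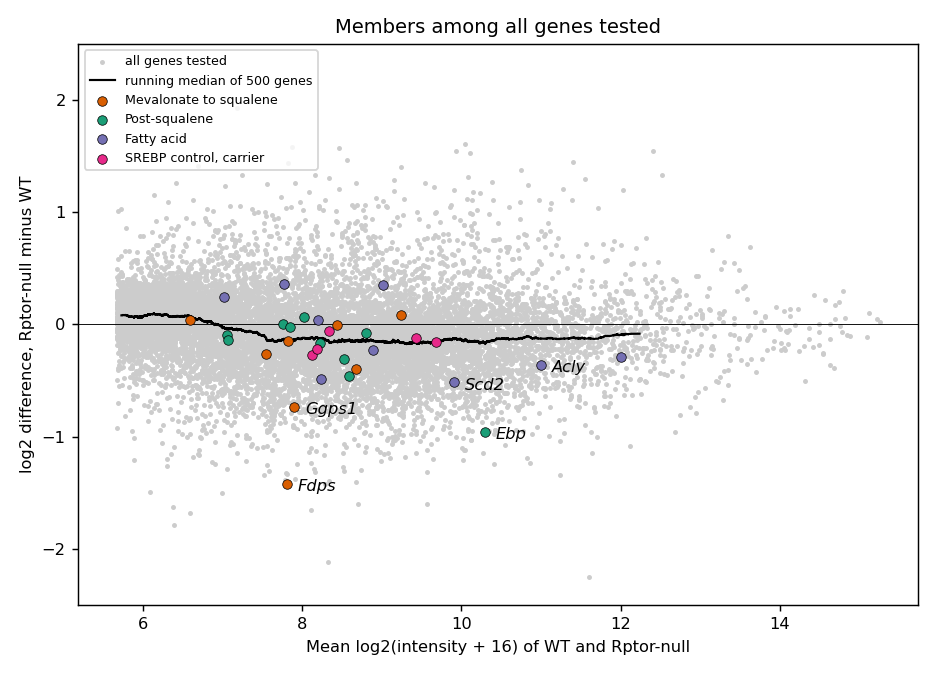
log2 difference, Rptor-null minus WT, against mean log2(intensity + 16) for the 12725 genes tested (grey; 1 gene lies beyond the axis), with the members coloured by branch, a running median of 500 genes in black, and the 5 members past the test named. Most members lie near the running median, which is itself below 0 at middle and high levels, and Fdps and Ebp lie farthest below it.

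Other genes of sterol synthesis and SREBP regulation, from a list of 15, had 2 of 10 measured genes lower, 1 higher and 7 not past the test. By the same rule 11.1% of all genes were lower and 3.93% higher. Insig2, the second SREBP-retaining protein, read 272 in WT, against 154 and 170 in the Rptor-null pools, 1.62-fold lower (adjusted p = 0.0249). Both pools were below WT, and the call was lost when its probe sets were averaged (adjusted p = 0.225) and after quantile normalization (adjusted p = 0.0525). Rnf139, a ubiquitin ligase of the endoplasmic reticulum, was 1.28-fold lower (adjusted p = 0.0438), a call lost in 4 of 10 tested alternatives, with an adjusted p of up to 0.153 after quantile normalization. Lpin1, a phosphatidate phosphatase that mTORC1 keeps out of the nucleus, read 561 in WT and 758 and 814, 1.39-fold higher (adjusted p = 0.0322). The Lpin1 call was lost in 3 of 10 tested alternatives, and with cross-matching probe sets left out the difference was 0.0052. Mbtps1, a protease that cleaves SREBPs, read 793 in WT against 680 and 731 and did not pass.

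Among enzymes that use isoprenoids 1 of 14 measured genes, of 15 listed, was lower and 0 higher. At an unadjusted p under 0.05 in limma, 1 was lower and 0 higher. The share of lower calls, 7.14%, was below the 11.1% of all genes, of which 3.93% were higher. At the unadjusted p 21.7% of all genes were lower and 8.11% higher. Rabggtb, the beta subunit of the transferase that geranylgeranylates Rab GTPases, read 587 in WT and 331 in each Rptor-null pool, 1.74-fold lower (adjusted p = 0.0084). Its partner Rabggta read 287 in WT and 282 and 269. Fnta and Fntb, the farnesyltransferase subunits, read 1519 in WT against 1432 and 1567, and 132 against 122 and 131. Their log2 differences were -0.055, -0.020 and -0.051, in that order.

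Other fatty acid synthesis and activation genes had 2 of 17 measured members lower, of 26 listed, and 0 higher (0 also at an unadjusted p under 0.05 in limma). The share of lower calls, 11.8%, was near the 11.1% of all genes, of which 3.93% were higher. At that unadjusted p 3 were lower, against 21.7% of all genes lower and 8.11% higher. Tecr and Hacd3 act in the elongation cycle that follows the elongases, as enoyl-CoA reductase and dehydratase. Tecr read 1525 in WT, against 700.1 and 686 in the Rptor-null pools, 2.17-fold lower (adjusted p = 0.00314). Hacd3 read 3548 in WT and 2467 and 2445, 1.44-fold lower (adjusted p = 0.00988), a call lost in 3 of 10 tested alternatives, with an adjusted p of up to 0.150 when its probe sets were averaged. Both Rptor-null pools were below WT for each gene. Hsd17b12, the keto-reductase of the same cycle, read 999.6 in WT and 1148 and 1092.

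Of 13 measured genes of sterol uptake, storage and efflux, from a list of 18, 1 rose, 0 fell and 12 did not pass. By the same rule 3.93% of all genes were higher and 11.1% lower. Both pools lay above WT for 9 of them and below it for 2, Mylip and Stard3, against 32.8% and 48.7% of all genes. For the other 2, Apoe and Lrp8, the pools lay on either side of WT. At an unadjusted p under 0.05 in limma 4 were higher and 0 lower, against 8.11% and 21.7% of all genes. The list median was 0.25, against -0.15 for the members, and it was 0.15 with Rptor-null pool 1 alone. Abca1, which exports cholesterol and is induced by sterol-sensing LXR receptors, read 599.7 in WT, against 1010.0 and 1100.3 in the Rptor-null pools, 1.74-fold higher (adjusted p = 0.0062). Npc2, a lysosomal cholesterol carrier, read 7957 in WT and 9328 and 9621, and Lipa, the lysosomal lipase, 1282 against 1565 and 1571, and neither passed. Macrophages also express these genes, and macrophage markers rose on the same arrays in 9 of 15 cases, with a median of 0.72. Their part in these differences was not tested.

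**Figure D4:**
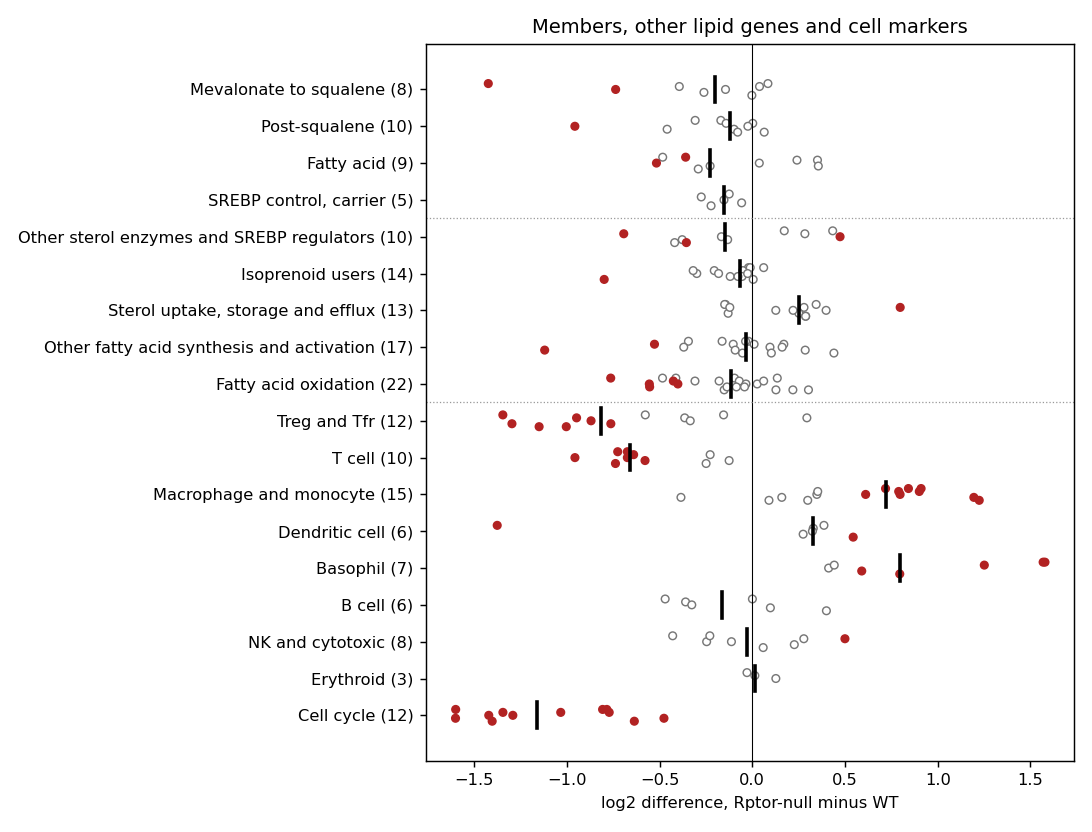
log2 difference, Rptor-null minus WT, of each measured gene in the 4 member groups (top), 5 other lipid gene lists (middle) and 9 marker lists (bottom); filled points have an adjusted p under 0.05, bars are medians and numbers in brackets are genes measured. The member groups have medians between -0.23 and -0.12, whereas the Treg and Tfr, T cell, macrophage, basophil and cell cycle lists lie farther from 0.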

How the data were processed

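Sorted Tfr cells were measured on single-colour Affymetrix arrays, 1 for WT and 2 for Rptor-null. Each deposited value was a linear intensity of a probe set, already scaled by the authors. MAS5 is named without a version per the submitters' processing notes, and the background correction, scaling target and detection calls were not given in the sources used here. Precision is limited by the number of arrays.

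Gene names came from the platform annotation, and probe sets with several symbols were not used. Groups came from the sample titles. Intensities were converted to log2(intensity + 16), so dim genes show too small a fold. Control probe sets were left out, as were those whose mean level did not exceed the 40th percentile (34.8), and the brightest kept probe set stood for a gene. The Rptor-null minus WT difference was fitted with limma 3.58.1 under R 4.3.3 (lmFit, eBayes with a trend), two-sided, with Benjamini-Hochberg adjustment over 12725 genes or, separately, 27022 probe sets. There was 1 residual degree of freedom beside 6.46 prior ones. P-values therefore measure only the spread between the Rptor-null pools, labelled as biological replicates.

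Members and lists were chosen with earlier results of these data known, and so was the rule for named genes: members past either test and those at key steps in full, the others by value or count, and up to 3 genes past the test in each other list. Some genes of the other lists that did not pass are named beside this rule. The 12 alternatives were other pseudocounts, filters, scalings, treatments of probe sets, variance priors and each Rptor-null pool left out. Cross-matching here means a name ending in x_at, s_at or a_at. Such probe sets can match several transcripts, of the same gene or of others. Marker lists of 8 cell types and of the cell cycle served as checks, and their counts stand in the closing section.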

Additional observations from a re-analysis of the deposited data

How the results depend on the processing

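No paired analysis was possible because the WT group is 1 pool and its label carries no replicate number. In the fit over genes, the falls of Fdps and Ebp passed the test under all 10 alternatives that allow one. Leaving out an Rptor-null pool leaves no residual degree of freedom, so it gave values without a test: the median over the members was -0.082 without replicate 1 and -0.24 without replicate 2. The count of 5 members lower became 3 after quantile normalization and 3 without cross-matching probe sets. It also became 3 when probe sets were averaged and 3 without a variance trend. The shares of all genes lower, in that order, were 5.46%, 9.67%, 10.6% and 6.05%. With the 60th percentile filter 7 members were lower, Sc5d and Elovl5 among them, against 17.8% of all genes. After median centring 6 were lower, Sc5d among them, and 1, Acss2, was higher, against 12.5% and 6.89% of all genes. The count was 4 with a pseudocount of 1, without a filter and with a robust variance prior. Of all genes, 10.9%, 6.58% and 10.9% were lower there, respectively. The 4 lower member probe sets became 0 in limma without a variance trend, where 12 were lower at an unadjusted p under 0.05. Among the other pathway lists 10 of 76 measured genes were lower and 2 higher in the main fit. The 10 lower became 4 after quantile normalization, 4 without cross-matching probe sets and 4 without a trend. The background of lower genes also shrank there, from 11.1% to 5.46%, 9.67% and 6.05%. The 2 higher became 4 after quantile normalization (4.12% of all genes higher) and 4 when probe sets were averaged (3.67%). They became 6 after median centring (6.89%), 4 with the 60th percentile filter (6.13%) and 1 without a trend (2.36%). The mevalonate median was -0.0024 without cross-matching probe sets, and the fatty acid median -0.095 without a filter, -0.11 after quantile normalization and -0.17 after median centring. Directions turned for Idi1 (0.10 after quantile normalization, 0.051 after median centring), Cyp51 (0.056 and 0.029), Dhcr7 (0.038), Srebf1 (0.0034) and Insig1 (0.039) after quantile normalization, for Hmgcs1 (-0.024) and Lss (-0.095) when probe sets were averaged, and for Lss (-0.19) and Ggps1 (0.53) without cross-matching probe sets. The cause of these shifts was not tested.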

Other observations

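Fatty acid oxidation, which degrades what the synthesis enzymes build, was lower in part. Of 22 measured genes of 25 listed, 5 were lower, 0 were higher and 17 did not pass the test with limma. By the same rule 11.1% of all genes were lower and 3.93% higher. At an unadjusted p under 0.05 in limma 8 were lower and 0 higher, against 21.7% and 8.11% of all genes. Ehhadh, a peroxisomal bifunctional enzyme, read 79.7 in WT, against 37.8 and 43.1 in the Rptor-null pools, 1.70-fold lower (adjusted p = 0.0194). Decr1, which handles unsaturated chains in mitochondria, read 704 in WT and 456 and 493, 1.47-fold lower (adjusted p = 0.0236). Hadha, a subunit of the mitochondrial trifunctional protein, read 428 in WT and 310.05 and 265, 1.47-fold lower (adjusted p = 0.0456). Both Rptor-null pools were below WT for each. The call of Decr1 was lost in 3 of 10 tested alternatives and that of Hadha in 4, both after quantile normalization among them (adjusted p = 0.0714 and 0.125). Cpt1a, the rate-limiting carnitine transferase, read 653 in WT and 613 and 606 (adjusted p = 0.628). The list median was -0.12, close to the -0.15 of the synthesis members.

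Among the marker lists that served as checks, the cell cycle list had 12 of 12 measured genes lower and 0 higher, Treg and Tfr genes 7 lower and 0 higher of 12, and T cell genes 7 lower and 0 higher of 10. Macrophage and monocyte genes had 0 lower and 9 higher of 15, and basophil genes 0 lower and 5 higher of 7. Dendritic cell genes had 1 lower and 1 higher of 6, NK and cytotoxic genes 0 lower and 1 higher of 8, B cell genes 0 and 0 of 6, and erythroid genes 0 and 0 of 3. By the same rule 11.1% of all genes tested were lower and 3.93% higher. With limma at an unadjusted p under 0.05, the B cell list had 2 lower and 1 higher and the erythroid list 0 and 0. At that unadjusted p 21.7% of all genes were lower and 8.11% higher.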
